A study of Rattus norvegicus with 34 samples.

Results

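Glutathione S-transferases were followed in the livers of ageing male rats of 2 strains on a whole-genome oligonucleotide array (Affymetrix Rat 230 2.0). The set holds 10 genes chosen by symbol: Gsta3 and Gsta4 of the alpha class, Gstm1, Gstm2 and Gstm7 of the mu class, Gstp1 of the pi class, Gstt1 and Gstt2 of the theta class, the kappa-class Gstk1 and the membrane-bound Mgst1. Where a gene had several probe sets, the one of highest mean signal in the strain was used, and all 10 were found and passed the filter on low signal in both strains, among 11943 named genes in F344 and 11984 in Brown Norway rats. F344 rats were 6, 11, 18 or 24 months old, with 4 untreated rats at each age, and stayed with their supplier until a week before necropsy. Brown Norway rats were 4, 12 or 24 months old and were housed individually. At each age, 3 were controls, for which the labels record no treatment, and 3 were given toluene at 1 g/kg by oral gavage and killed 4 h later. The labels name no vehicle for the controls. Each array is taken as 1 rat.

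Glutathione S-transferases join the tripeptide glutathione to electrophilic compounds, which makes them more water-soluble and marks them for export and for breakdown to mercapturic acids. The liver carries the cytosolic alpha, mu and theta enzymes in its hepatocytes, a kappa enzyme in mitochondria and peroxisomes, and a microsomal enzyme in the endoplasmic reticulum membrane. The pi enzyme is scarce in adult rat hepatocytes, is found in bile duct cells, and is a classical marker of preneoplastic foci in rat liver. Many genes of the family respond to the transcription factor Nrf2 through antioxidant response elements, and several differ in level between male and female rats.

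Promoter sequences from RefSeq (build GRCr8) were matched for 8 of the 10 genes and gave 9 start sites, since Gsta3 has 2; Gstt1 and Gstt2 had no entry. The 250 bases upstream of each start were searched on both strands for the core of the antioxidant response element, TGACNNNGC, and for the STAT5 site TTCNNNGAA. The antioxidant core was present in 3 of the 9 promoters, against 10.1% of 33469 rat promoters of the same length. Those 3 belong to Gstp1, Gsta3 (its first start) and Gstm7, and they are shown here 5′ to 3′ on the gene's own strand with the matches in capitals.
Gstp1 promoter, chr1:210769706-210769955, minus strand: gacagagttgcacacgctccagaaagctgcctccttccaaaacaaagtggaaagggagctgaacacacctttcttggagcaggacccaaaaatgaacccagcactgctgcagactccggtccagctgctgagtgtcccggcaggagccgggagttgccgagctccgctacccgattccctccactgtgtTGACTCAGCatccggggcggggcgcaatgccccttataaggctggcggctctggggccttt
Gsta3 promoter, chr9:31154739-31154988, plus strand: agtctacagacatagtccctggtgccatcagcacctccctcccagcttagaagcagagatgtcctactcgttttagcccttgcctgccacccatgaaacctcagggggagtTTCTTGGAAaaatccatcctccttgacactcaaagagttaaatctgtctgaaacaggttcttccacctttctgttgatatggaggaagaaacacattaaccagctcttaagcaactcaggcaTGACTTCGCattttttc
Gstm7 promoter, chr2:198260320-198260569, minus strand: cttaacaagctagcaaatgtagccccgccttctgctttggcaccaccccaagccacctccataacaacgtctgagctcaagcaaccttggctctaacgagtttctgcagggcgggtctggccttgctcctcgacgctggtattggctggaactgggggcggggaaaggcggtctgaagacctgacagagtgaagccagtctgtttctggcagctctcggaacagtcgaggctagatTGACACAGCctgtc
The Gstp1 match TGACTCAGC begins 61 bases upstream of the start. In Gsta3 the match TGACTTCGC begins 17 bases upstream and the STAT5 match TTCTTGGAA begins 139 bases upstream. The Gstm7 match TGACACAGC begins 14 bases upstream. The STAT5 site was in 1 of the 9 promoters, against 7.67% of all promoters. Another motif, the xenobiotic response element core GCGTG, was in 3 of the 9 (the second start of Gsta3, Gsta4 and Gstp1), against 25.9%. These are matches of letters in a fixed window and carry no measurement of binding.

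Array quality differed between the strains. Median signal over all probe sets was 35.5 to 38.2 on the 18 Brown Norway arrays and 44.8 to 46.9 on the 16 F344 arrays, so levels were compared within a strain. Signal at the 3′ end of the control transcript Gapdh divided by that at its 5′ end, a ratio that rises when RNA is degraded, was 0.774 to 0.944 in Brown Norway rats and 1.31 to 7.33 in F344 rats. It exceeded 2.5 on 5 F344 arrays: replicates 1 and 3 at 6 months, replicates 1 and 2 at 11 months and replicate 4 at 18 months, and on none of the 24-month arrays. All 11 hepatocyte markers measured were above the floor of 32 signal units on every array of both strains. The Y-chromosome genes Eif2s3y (lowest signal 121) and Uty (lowest signal 67.8, on 1 of its 2 probe sets) were above that floor on every array, and the study design names males only. A probe set of a further Y-linked gene, Rps4y2, was above it on all but 1 F344 array and on 1 Brown Norway array.

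The levels spanned a wide range, although signals of different probe sets cannot be compared as amounts. Mgst1, the membrane enzyme, gave 6610 to 7164 in F344 and 6201 to 6956 in Brown Norway rats, a signal above that of 99.9% of probe sets in each strain. Its coefficient of variation was 2.15% and 3.19% over all arrays of a strain; whether so bright a probe set was near saturation was not tested. Gsta4, which conjugates the lipid peroxidation product 4-hydroxynonenal, varied little as well, by 7.12% and 10.8%. Gsta3 varied most, with a highest signal 9.45 times the lowest in F344 and 11.1 times the lowest in Brown Norway rats. Near-identical paralogs of the alpha and mu classes can share probes, so each signal stands for the named gene and any close copy the probes also detect.

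**Figure D1:**
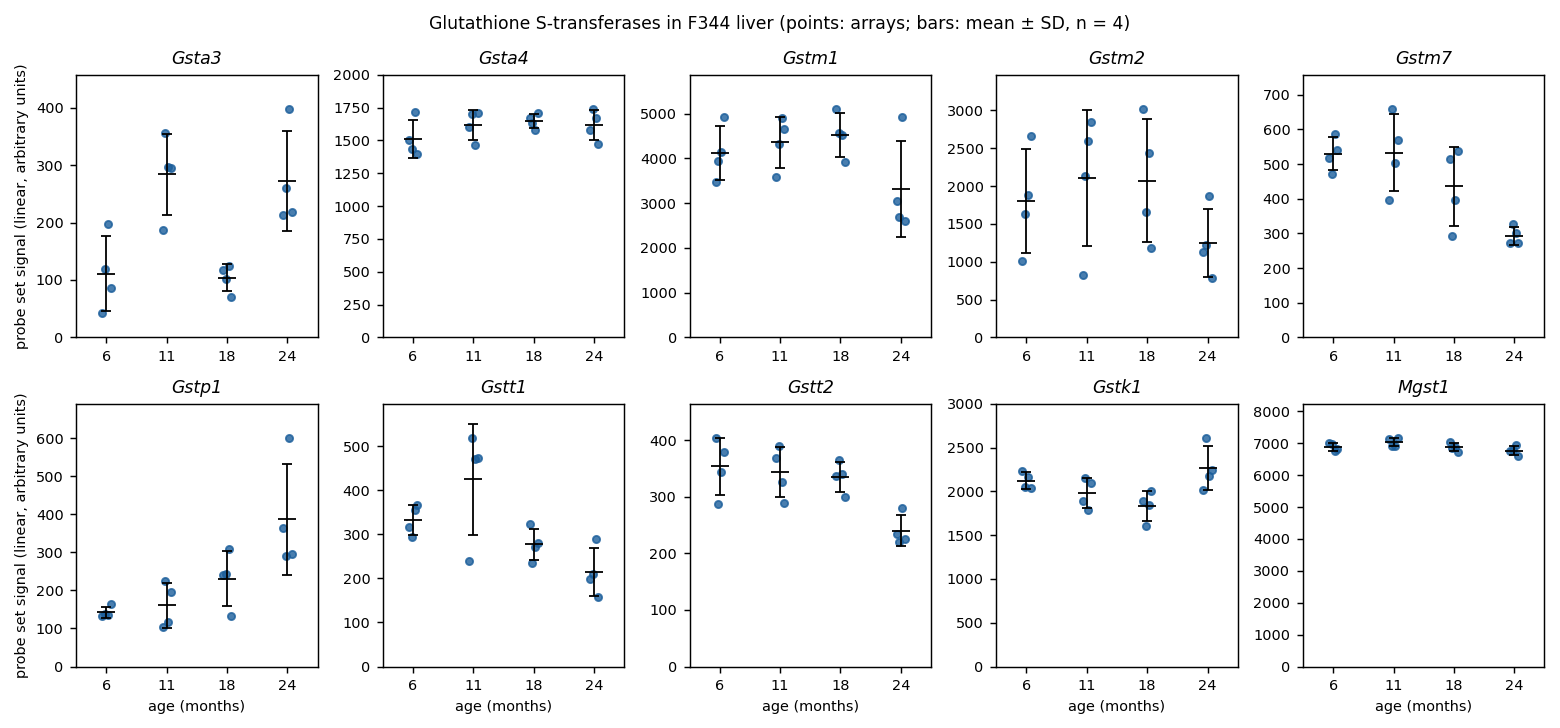
Signal (linear, arbitrary units) of the 10 genes on each F344 array against age in months, with points for arrays and bars for mean ± SD (n = 4). The mean of Gstp1 is highest and the means of Gstm7 and Gstt2 are lowest at 24 months, while Gsta3 is high at both 11 and 24 months and Mgst1 stays between 6610 and 7164.

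In F344 rats, 4 of the 10 transferases differed between 24 and 6 months: Gsta3 and Gstp1 rose, and Gstm7 and Gstt2 fell. The share of all 9214 tested genes called in this comparison was 7.4%, with 4.44% higher and 2.96% lower (limma, Benjamini-Hochberg adjusted p under 0.05). In 5 of the 10 the groups did not overlap, against 15.3% of all genes. The median log2 fold change was -0.19 over the 10 genes and -0.01 over all genes.

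Gstp1 read 134, 137, 135 and 163 at 6 months, 105, 225, 116 and 197 at 11 months, 241, 243, 307 and 133 at 18 months, and 364, 290.3, 600.3 and 294 at 24 months. Every 24-month array was above every 6-month array, and 1 array of 18 months was also above the lowest of 24 months. The mean went from 142 ± 14.1 to 387 ± 146 (SD, n = 4 each), a log2 fold change of 1.38 (SE 0.29), or 2.61-fold (limma adjusted p = 0.007). The call was made under all 29 alternative settings, at adjusted p between 0.00173 and 0.0396. The steps on the way were not called: 18 against 6 months gave 0.64 (adjusted p = 0.375) and 24 against 18 months gave 0.74 (adjusted p = 0.278).

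Gsta3 read 42.1, 119, 197 and 86.6 at 6 months, 188, 356, 297 and 295 at 11 months, 118, 102, 125 and 71.2 at 18 months, and 213, 261, 398 and 218 at 24 months. The 11-month and 24-month arrays lay above the 6-month and 18-month arrays, except that the highest array of 6 months exceeded the lowest of 11 months, so the levels did not run in 1 direction with age. Between 6 and 24 months the mean went from 111 ± 65.2 to 272 ± 86.6 (SD, n = 4 each), a log2 fold change of 1.45 (SE 0.36), or 2.74-fold (limma adjusted p = 0.0197). The 24-month arrays were all above the 6-month arrays. The call was lost under 5 of 29 alternatives, among them leaving out replicate 1 of 6 months (log2 1.06, adjusted p = 0.0513) or replicate 3 of 24 months (log2 1.26, adjusted p = 0.058). At 11 against 6 months the difference was 1.52 with an adjusted p of 0.718, in a comparison with 0 genes called. At 24 against 18 months it was 1.37 (adjusted p = 0.0674), with no overlap.

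Gstm7, a mu-class enzyme, read 518, 472, 586 and 541 at 6 months, 397, 659, 504 and 569 at 11 months, 515, 292, 396 and 538 at 18 months, and 273, 327, 301 and 271 at 24 months. All 24-month arrays lay below all 6-month and 11-month arrays, and the 18-month arrays overlapped both. The mean went from 529 ± 47.8 to 293 ± 26.4 (SD, n = 4 each), a log2 fold change of -0.85 (SE 0.18), or 1.81-fold lower (limma adjusted p = 0.0086). It was called under all 29 alternatives, at adjusted p between 0.00101 and 0.0497.

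Gstt2, a theta-class enzyme that acts on sulfate esters, read 404, 288, 344.03 and 380.1 at 6 months, 369, 389.7, 326 and 290.0 at 11 months, 337, 364, 341 and 299 at 18 months, and 234, 220.1, 280.0 and 225 at 24 months. All 24-month arrays were below every younger array. The mean went from 354 ± 50.5 to 240 ± 27.3 (SD, n = 4 each), a log2 fold change of -0.56 (SE 0.13), or 1.47-fold lower (limma adjusted p = 0.0149). A second probe set of Gstt2, of mean signal 47.2, gave -0.05 (adjusted p = 0.949), and the mean of both gave -0.30 (adjusted p = 0.224). Without the 5 arrays of high Gapdh ratio the chosen probe set gave -0.47 (adjusted p = 0.0906), and without replicate 1 of 6 months -0.49 (adjusted p = 0.0507).

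Gstt1, the theta-class enzyme known for small halogenated substrates, read 317, 294, 354 and 367 at 6 months and 199, 211, 289 and 158 at 24 months. The groups did not overlap, but the log2 fold change of -0.66 (SE 0.22) missed the threshold (limma adjusted p = 0.0814). It passed under 4 of 29 alternatives, among them leaving out replicate 3 of 24 months (adjusted p = 0.0349) or replicate 1 of 11 months (adjusted p = 0.0156). At 11 months the arrays read 239, 519, 470.5 and 473.

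The abundant mu-class genes Gstm1 and Gstm2 were not called. Gstm1 read 3483 to 4927 at 6 months and 2604 to 4916 at 24 months, with a log2 fold change of -0.35 (SE 0.18, limma adjusted p = 0.285); without replicate 3 of 24 months, which read 4916, it was -0.56 (adjusted p = 0.0283). Gstm2 read 1014 to 2666 and 784 to 1866, with -0.51 (adjusted p = 0.521). Gsta4 (0.10), Gstk1 (0.09) and Mgst1 (-0.02) had 95% confidence intervals that include 0, -0.11 to 0.31, -0.14 to 0.31 and -0.19 to 0.14.

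The 3 other F344 contrasts that were tested called none of the 10; 18 and 24 months were not tested against 11 months. At 11 against 6 months the background was 0% of genes, although 357 had an unadjusted p under 0.05, and 1 of the 10 genes was among them. At 18 against 6 months it was 1.07%, with 1 member of unadjusted p under 0.05 among 1088 genes. At 24 against 18 months it was 1.79%, and 6 of the 10 had an unadjusted p under 0.05 among 1099 genes. Groups did not overlap in 3 of the 10 in that comparison (Gsta3, Gstt2 and Gstk1), against 7.67% of genes. An F test over all 4 ages called 4 genes, with a background of 6%: Gsta3 (adjusted p = 0.0136), Gstp1 (0.0197), Gstm7 (0.0205) and Gstt2 (0.0345), all by limma, while Gstt1 missed (0.0517).

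The position of the arrays with a high Gapdh ratio within their groups of 4 varied, where for each gene 1 array is always lowest and 1 highest. Replicate 1 of 11 months (ratio 7.33) was the lowest of its group in 6 of the 10 genes and the highest in 0. Replicate 4 of 18 months (5.31) was lowest in 6 and highest in 3, and replicate 1 of 6 months (4.35) lowest in 4 and highest in 3. Replicate 2 of 11 months (3.74) was lowest in 1 and highest in 6, and replicate 3 of 6 months (2.96) lowest in 1 and highest in 3. Between the oldest and the youngest F344 rats, Gsta3, Gstm7 and Gstp1 kept their calls without all 5 of these arrays, whereas Gstt2 did not. In the F test over all 4 ages, only 1 of the 10 genes was called without them, against 4 with all arrays.

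**Figure D2:**
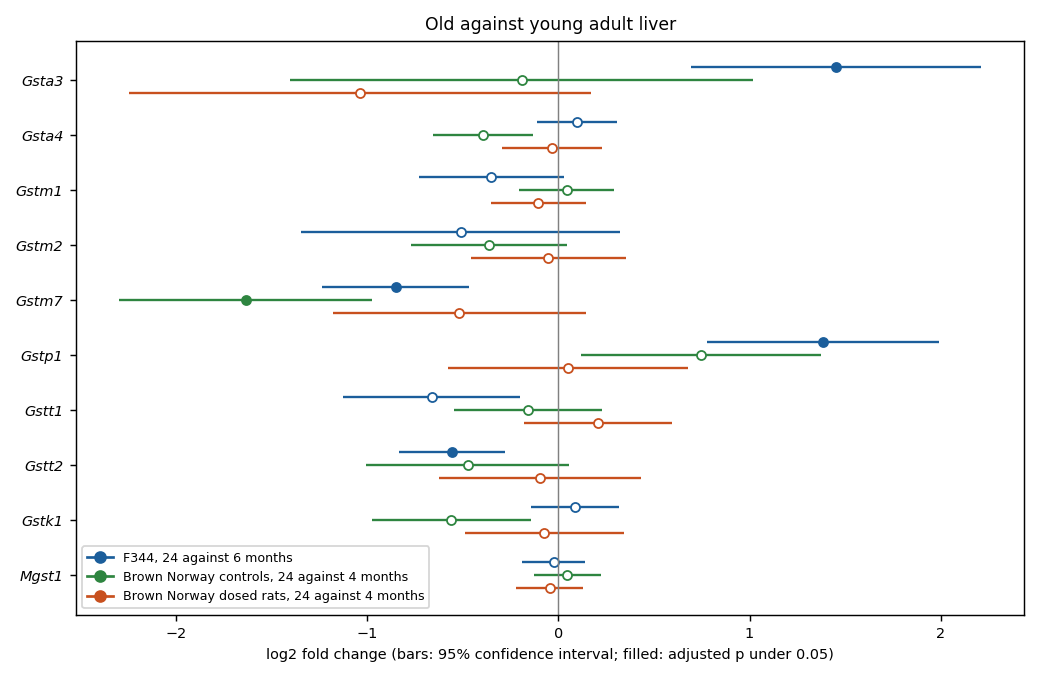
Log2 fold change of each gene between the oldest and the youngest adults, in F344 rats (24 against 6 months) and in Brown Norway controls and dosed rats (24 against 4 months), with 95% confidence intervals; filled points have an adjusted p under 0.05. Gstm7 lies below 0 in all 3, at -0.85, -1.64 and -0.52. Gstp1, Gsta3 and Gstt2 are filled only in F344, though Gstp1 and Gstt2 have the same sign in Brown Norway controls (0.74 and -0.47).

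Relatives of these enzymes moved in both directions at 24 against 6 months in F344 rats. Of 15 other members of the family and related proteins that were tested, 3 rose and 1 fell; their median was -0.02 on the log2 scale. Clic1, a chloride channel protein of the same fold, rose 1.58-fold, the elongation factor subunit Eef1g 1.31-fold and the prostaglandin D synthase Hpgds 1.63-fold, and the zeta-class enzyme Gstz1 fell 1.34-fold (limma adjusted p = 0.0137, 0.0198, 0.0469 and 0.0277). Gstp3, a paralog of Gstp1, gave -0.70 (adjusted p = 0.119), the opposite sign to Gstp1, and Gstt3 gave -1.05 (adjusted p = 0.0891). Gsta1, a major hepatic alpha enzyme, gave 0.04 with signals of 4075 ± 411 at 6 months and 4181 ± 57.0 at 24 months (SD, n = 4 each).

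The counts that follow stand beside the 4.44% of all tested genes called higher and the 2.96% called lower, so that 1 gene of a list of about this size is near the background. Of 20 genes of glutathione synthesis and recycling, 1 rose and 1 fell: the glutaredoxin Glrx rose 1.94-fold (limma adjusted p = 0.00211) and the glyoxalase Hagh fell 1.42-fold (0.0152). The subunits of the rate-limiting synthetic enzyme were not called, with 0.07 for Gclc (adjusted p = 0.878) and -0.61 for Gclm (0.226). In the mercapturate pathway, 2 of 17 fell and none rose. These were the aminoacylase Acy3, which fell 2.40-fold (0.00583), and the cysteine conjugate lyase Kyat3, which fell 1.38-fold (0.0365). Of the 17, 12 lay below 0 and 4 above, with a median of -0.13. The summed signal of the 21 mercapturate genes on the array was 6585.7 to 7387.8 at 6 months and 5279.5 to 5750.6 at 24 months, without overlap.

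Of 21 tested genes listed as Nrf2 targets other than transferases, 4 rose and none fell, with a median of 0.21. Their summed signal overlapped, at 13391 to 18172 at 6 months and 17224 to 20871 at 24 months. The aldo-keto reductase Akr1b8 rose 2.23-fold, the haem oxygenase Hmox1 2.10-fold, the quinone reductase Nqo1 1.86-fold and Cyp2a1 1.81-fold (limma adjusted p = 0.0142, 0.011, 0.0248 and 0.0298). Cyp2a1 is also on the list of sex-patterned genes, and whether it responds to Nrf2 in rat liver was not tested. The transcript of Nrf2 itself, Nfe2l2, gave 0.36 (adjusted p = 0.156) and Keap1, its inhibitor, -0.14, not called either. Of 17 regulators of transferase transcription, only Stat3 was called, with a 2.19-fold rise (0.0075). Among 11 targets of the receptors CAR and AhR, Cyp2b3 fell 1.87-fold and Cyp1a2 1.57-fold (0.00833 and 0.028).

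The same livers differed in sex-patterned genes and in markers of other cell types. Of 16 sex-patterned liver genes, 8 rose and 8 fell at 24 against 6 months. The male P450 Cyp2c11 went from 5855 ± 299 to 316 ± 191 and the female P450 Cyp2c12 from 332 ± 79.1 to 6437 ± 783 (SD, n = 4 each; limma adjusted p = 1.83e-07 and 0.000205). At 18 months they still read 5193 ± 959.7 and 391 ± 419. Gsta3 was high at 24 months and also at 11 months, when Cyp2c11 read 6038 ± 669 and Cyp2c12 612 ± 413. The part of this shift in the transferase differences was not tested.

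Genes listed as bile duct markers, not all of them confined to duct cells, were higher at 24 months. Of 7 tested, 2 rose (Krt18 1.80-fold and Cldn7 2.47-fold, limma adjusted p = 0.00072 and 0.00284) and none fell. All 7 lay above 0, with a median of 0.84. Summed over the 11 on the array, their signal was 2432 to 3057 at 6 months, 3745 to 4091 at 18 months and 4391 to 5314 at 24 months. At 18 against 6 months, 2 of the 7 were already called higher. Cftr and Krt7 were under the floor on all F344 arrays. Of 14 Kupffer cell and macrophage markers, 6 rose and none fell, among them Fcer1g, Ptprc, Tyrobp and Cd68, with a median of 0.70. Their summed signal was 4492 to 5814 at 6 months, 6713 to 8774 at 18 months and 6290.3 to 8338 at 24 months. At 18 against 6 months, 4 of the 14 were already called higher, with a median of 0.69. Of 8 preneoplastic focus markers, 3 rose, Gstp1 itself, Prom1 (1.81-fold, limma adjusted p = 0.00256) and Akr1b8, which is also on the Nrf2 list. The summed signal of the 10 on the array overlapped, at 976 to 1231 at 6 months and 996 to 1999 at 24 months. Gpc3 and Igf2 were under the floor on all F344 arrays. Of 5 lymphocyte and plasma cell markers, 2 rose (Gzmk 2.00-fold and Klrd1 1.52-fold, limma adjusted p = 0.00516 and 0.00841), all 5 lay above 0 with a median of 1.00, and the summed signal of the 10 on the array was 203 to 254 at 6 months and 454 to 727 at 24 months, with Cd3d, Cd3e and Ms4a1 under the floor throughout. Of 9 stellate cell and fibroblast markers 1 rose, Dcn (3.32-fold, 0.018), and of 9 endothelial markers none was called.

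Markers of the hepatocytes around the central vein were lower at 24 months. Of 9 tested, 4 fell (Lect2 2.71-fold, Tbx3 2.06-fold, Oat 2.03-fold and Cyp1a2 1.57-fold, limma adjusted p = 0.0172, 0.0351, 0.0351 and 0.028), none rose, and 7 lay below 0 with a median of -0.58. Their summed signal over the 11 on the array was 13915.5 to 16531.5 at 6 months and 11270.5 to 12550.4 at 24 months, without overlap, and Lgr5 was under the floor on all F344 arrays. Of 13 periportal markers 1 rose (Cdh1) and 1 fell (Pck1), and 12 lay below 0 with a median of -0.13. Their summed signal was also lower, at 34159.9 to 36761.1 at 6 months and 31196.6 to 32385 at 24 months, without overlap. The part of these cell type and zonal differences in those of Gstp1, Gsta3, Gstm7 and Gstt2 was not tested. In whole liver, fewer cells of a type and less RNA per cell cannot be told apart.

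The tested genes nearest in pattern to the called members were found from the mean absolute difference of log2 signal over the 16 F344 arrays, each gene centred on its own mean. For Gstp1 they were Srgn, S100a10 and Fli1, at 0.24 each, against Gstp1's own mean deviation of 0.58. For Gstm7 they were the noncoding LOC100910424 (0.13), Sema4g (0.14) and Oaz2 (0.15), against 0.38. For Gstt2 they were Klhdc3, Cyp2d3 and Kifc2, at 0.11 each, against 0.23. Gsta3 had no close neighbour: the nearest, Nfil3, differed by 0.48, L3hypdh and Tmem252 by 0.49, against 0.76.

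**Figure D3:**
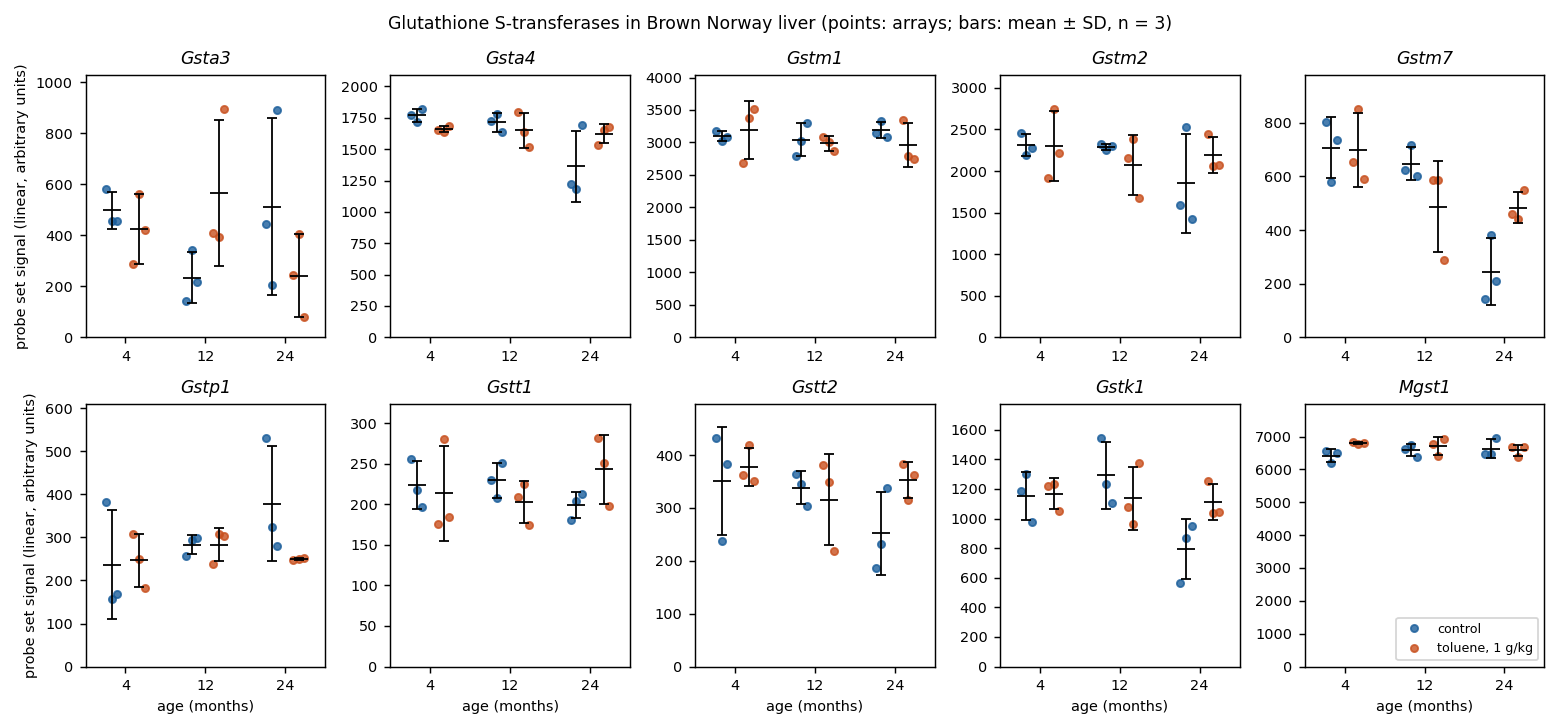
Signal (linear, arbitrary units) of the 10 genes on each Brown Norway array against age in months, controls and rats dosed with toluene side by side, with bars for mean ± SD (n = 3). Gstm7 is lowest in the 24-month controls, and Gsta3 spreads from 80.9 to 895.

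In Brown Norway controls, 1 transferase was called between 24 and 4 months, Gstm7, which fell; the background was 0.245% of 8586 genes, 0.0699% on the lower side. Gstm7 read 801, 579.8 and 737 at 4 months, 624, 717 and 602 at 12 months, and 142, 383 and 210 at 24 months. The 24-month controls lay below every other control. The mean went from 706 ± 114 to 245 ± 124 (SD, n = 3 each), a log2 fold change of -1.64 (SE 0.31), or 3.11-fold lower (limma adjusted p = 0.0388). The call was made under 12 of 29 alternatives and lost under the others. Leaving out any single 4-month array lost it, as did leaving out any 12-month control, any dosed 24-month array, or 24-month control 1 (log2 -1.30, adjusted p = 0.158) or 3 (-1.59, 0.0642). Leaving out 24-month control 2 gave -2.02 (0.00559). The adjusted p ranged from 0.00559 to 0.476, and the log2 fold change from -2.02 to -1.30. Against 12 months the difference was -1.52 (adjusted p = 0.0841, background 0.0233%).

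Other control differences were not called. Gsta4 read 1774.5, 1718 and 1821 at 4 months and 1219, 1181 and 1688 at 24 months, without overlap, with -0.40 (SE 0.12, limma adjusted p = 0.182); without 24-month control 3 it was -0.56 and called (adjusted p = 0.027). Gstk1, the mitochondrial and peroxisomal enzyme, read 1185, 1300.0 and 977 at 4 months and 567, 867 and 951 at 24 months, also without overlap, with -0.56 (adjusted p = 0.253). Gstp1 gave 0.74 (adjusted p = 0.334), with 383, 158 and 170 at 4 months and 531, 323 and 281 at 24 months, which overlapped. Groups did not overlap in 3 of the 10 genes, against 12.7% of all genes. At 12 against 4 months none of the 10 was called (background 0%, with 334 genes of unadjusted p under 0.05, none of them a member). An F test over the 3 control ages called none either (background 0.0815%), with Gstm7 nearest (adjusted p = 0.0611).

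Among other genes in these controls, none of 16 related transferases, 20 glutathione genes, 21 Nrf2 targets or 12 sex-patterned genes was called. Cyp2c11 was 4920.2 ± 164 at 4 months and 2983 ± 1154 at 24 months, and Cyp2c12 stayed at or under 111 on every Brown Norway array. Of 14 Kupffer cell markers 2 rose, C1qb 3.02-fold and Cd163 2.5-fold (limma adjusted p = 0.0236 and 0.0354), with a summed signal of 4068 to 4569 at 4 months and 5914 to 11749.7 at 24 months. Of 10 pericentral markers none was called, but 8 lay below 0 with a median of -0.38, and their summed signal over the 11 on the array was 17368 to 17904 at 4 months and 13266 to 14714 at 24 months, without overlap. Of 13 periportal markers 10 lay below 0 and 1 fell, the glutaminase Gls2 (2.41-fold, adjusted p = 0.0428), with a median of -0.12. The plasma cell gene Jchain, the 1 lymphocyte marker tested, rose 2.69-fold (0.0145). The part of these markers in the Gstm7 difference was not tested. Over the 18 Brown Norway arrays, the genes nearest to Gstm7 were Bhmt, Ethe1 and Hal (0.17, 0.17 and 0.18, against Gstm7's own 0.51), by the same measure as in F344.

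The old-age difference was compared between the strains directly, on 7964 genes read by the same probe set, with 24 against 6 months in F344 and 24 against 4 months in Brown Norway controls, so the younger ages differ. None of the 10 was called (background 0.188%), under 48 alternatives as well. For Gsta3 the strains differed by 1.65 (SE 0.67, adjusted p = 0.559), for Gstk1 by 0.65 (SE 0.22, 0.441), for Gsta4 by 0.49 (SE 0.16, 0.354) and for Gstm7 by 0.78 (SE 0.36, 0.641), as F344 minus Brown Norway. By the same test, Gstp1 and Gstt2, called with age only in F344, gave 0.64 (SE 0.41, adjusted p = 0.804) and -0.08 (SE 0.28, adjusted p = 0.971).

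**Figure D4:**
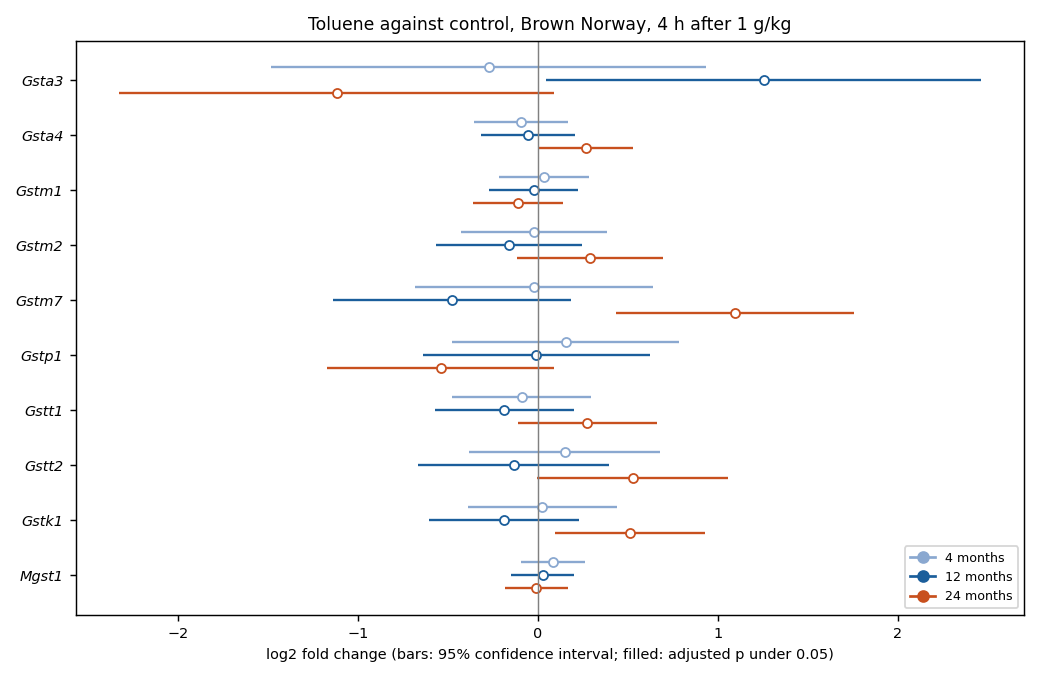
Log2 fold change of each gene in Brown Norway rats 4 h after toluene (1 g/kg) against controls of the same age, at 4, 12 and 24 months, with 95% confidence intervals; a filled point would have an adjusted p under 0.05, and none is filled. Gstm7 lies at 1.10 at 24 months, with an interval of 0.43 to 1.76.

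Toluene, a solvent that liver P450 enzymes oxidise, gave no call among the 10 transferases at any age. The backgrounds were 0.0233% at 4 months, 0.0349% at 12 months, 0.0582% at 24 months and 0.0699% over all ages (limma, adjusted p under 0.05). An unadjusted p under 0.05 was reached by 0, 1 and 3 of the 10 genes at 4, 12 and 24 months, among 268, 395 and 957 genes. Averaged over ages the 10 had a median of 0.03, and all 10 missed the threshold, with 0 of unadjusted p under 0.05 among 449 genes.

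At 24 months, Gstm7 read 142, 383 and 210 in controls and 458, 441 and 551 in dosed rats, which did not overlap. The difference was 1.10 (SE 0.31, 2.14-fold higher, limma adjusted p = 0.284), and without control 2 of 24 months it was 1.48 (0.0378). Gstk1 read 567, 867 and 951 in controls and 1253, 1036 and 1044 in dosed rats, again without overlap, with 0.51 (SE 0.20, adjusted p = 0.362). Gstp1 differed the other way, with 531, 323 and 281 in controls and 248, 250.1 and 252 in dosed rats, also without overlap, and -0.54 (SE 0.30, adjusted p = 0.516). These were the 3 of the 10 genes whose groups did not overlap at this age, against 16.8% of all genes. In the same comparison all 14 Kupffer cell markers lay below 0 with a median of -0.84, none of them called, and their summed signal was 5914 to 11749.7 in controls and 3936 to 5756 in dosed rats, without overlap. Of 13 periportal markers 12 lay above 0 with a median of 0.23, none called. The periportal sums overlapped (27219.2 to 31611.9 in controls and 29934.8 to 34188.5 in dosed rats), as did the pericentral sums (13266 to 14714 and 13338 to 14420.2). The part of these markers in the Gstm7, Gstk1 and Gstp1 differences was not tested. The change of the toluene effect from 4 to 24 months was 1.12 for Gstm7, with a 95% interval of 0.18 to 2.06 (adjusted p = 0.969, background 0.0116%). The dosed rats of 24 and 4 months gave -0.52 for Gstm7 (adjusted p = 1, background 0.268%, none of the 10 called). These comparisons share arrays: the same 24-month controls enter the age difference and the toluene difference.

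Gsta3 differed with opposite signs at 12 and 24 months, and neither difference passed the threshold. At 12 months it read 143, 341 and 217 in controls and 409, 391 and 895 in dosed rats, with 1.26 (SE 0.57, limma adjusted p = 0.923). At 24 months it read 443, 206 and 889 in controls and 242, 403 and 80.9 in dosed rats, with -1.12 (adjusted p = 0.488). Replicate 3 of the dosed 12-month rats had the highest Gsta3 of all Brown Norway arrays (895), close to the 889 of 24-month control 3. Within its group it had the lowest Gstm7 (290.0 against 587 and 585) and the lowest Gstm2 (1675 against 2155 and 2381). In a group of 3, 1 array is always lowest, and groups of 3 were not examined for outliers.

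Outside the family, 2 genes of the lists were called for toluene over all ages. The haem synthesis enzyme Alas1 rose 2.91-fold (limma adjusted p = 0.000113) and the receptor gene Ahr 1.69-fold (0.0289). None of 21 Nrf2 targets was called, with a median of -0.07, and all 14 Kupffer cell markers lay below 0 with a median of -0.28, none of them called. Within the wider family none was called for toluene at any age. Ltc4s, the leukotriene C4 synthase, differed with age among dosed rats, 6.92-fold higher at 24 than at 4 months (adjusted p = 0.0019), while controls of the same ages gave 1.76-fold (0.382) and toluene at 24 months 3.98-fold (0.0628).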

How the data were processed

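The authors deposited 1 linear signal intensity for each probe set and array; MAS5 and RMA are named per the submitters' processing notes, with no statement of which made these values. Of 24946 probe sets, 53 array controls were set aside, 17584 carried 1 gene symbol and 393 several, which were not named. Symbols came from the platform annotation and were updated through Entrez identifiers to RefSeq.

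Intensities under 32 were set to 32 and taken to log2. A gene was tested if it exceeded 32 on 4 or more F344 arrays (9214 genes) or 3 or more Brown Norway arrays (8586 genes), each strain in 1 limma fit over all its groups (limma 3.58.1, R 4.3.3), with Benjamini-Hochberg adjustment over all genes. The fit was also run on simulated data with independent noise for each gene, which does not cover RNA quality or correlation between genes. Nothing in the labels says that replicates share a litter or day. With 3 or 4 arrays a group, precision is low.

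Members and gene lists were chosen with earlier results of these data known. Named genes were the 10 members, up to 4 called genes of smallest p per list, the 3 genes nearest each called member, Cyp2c11 and Cyp2c12; a few uncalled list genes (Gstp3, Gstt3, Gsta1, Gclc, Gclm, Nfe2l2, Keap1) and the Y-linked checks were chosen after their values were seen. Alternatives changed the probe set rule, filter, normalization, floor, moderation, weights, samples and Gapdh handling.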

Additional observations from a re-analysis of the deposited data

Results flagged for a closer look

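Among 40 groups of 4 F344 arrays (10 genes at 4 ages), 2 held an array whose gap to its nearest neighbour was a large part of the group's range on the log2 scale by Dixon's criterion, as chance gives in about 1 group in 20. Gstp1 at 6 months had replicate 4 highest, at 163 signal units against 134 to 137 for the others, a gap of 0.881 of the range. Gstt1 at 11 months had replicate 1 lowest, at 239 against 470.5 to 519, a gap of 0.874 of the range; this array also had the highest Gapdh 3′ to 5′ ratio, 7.33.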

How the results depend on the processing

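Over 130 member values and 3760 alternative values, no called value changed sign, 25 calls were lost and 22 gained, and 106 values that were not called under either setting changed sign. The number of members called at 24 against 6 months in F344 was 4, and 2 to 5 when single arrays were left out. At 24 against 18 months it was 0, but 5 with array quality weights, 1 with only the groups compared, 1 without the arrays of Gapdh ratio above 2.5, and 0 to 2 without single arrays. For any age difference in F344 it was 4, but 1 with no filter, 1 with a higher floor on the signal, 7 with array weights, 1 when the high-ratio arrays were dropped, and 1 to 6 without single arrays. In Brown Norway controls at 24 against 4 months it was 1, but 0 with no filter, 0 with a higher floor on the signal, 0 with only the groups compared, and 0 to 1 without single arrays. At 24 against 12 months it was 0, but 1 with array weights and 0 to 1 without single arrays. For any age difference it was 0, but 1 with a lower floor, 1 with variance trend and robust moderation, 1 with array weights, and 0 to 1 without single arrays. For toluene at 24 months it was 0, and 0 to 1 without single arrays. The causes were not tested.

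The number of all genes called ranged as follows over the alternatives: 682 at 24 against 6 months in F344 (296 to 1153), 165 at 24 against 18 months (64 to 629), 99 at 18 against 6 months (20 to 430) and 21 at 24 against 4 months in Brown Norway controls (0 to 137). No paired analysis was made, since each array is taken as a separate rat and the labels link no rats between groups.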
